A study of Mus musculus with 12 samples.

Results

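Krueppel-like factors (KLFs) are transcription factors, and 10 of their genes are described here: Klf2, Klf3, Klf4, Klf5, Klf6, Klf9, Klf10, Klf11, Klf13 and Klf15. They were found by gene symbol among the 54532 genes of the deposited count table. All 10 were in the table, and all 10 passed a filter on low counts that kept 16038 genes. They were chosen by symbol with the fold changes and calls of an earlier account of these libraries known. Their levels and fold changes between doses are therefore a description and carry no test. Messenger RNA was sequenced from C2C12, a mouse skeletal muscle line that the labels call myoblasts, which had grown to full confluency. The cells then had 24 h with 0, 2 or 6 µM of perfluorooctanesulfonate (PFOS, a long-lived fluorinated surfactant), with 4 libraries at each dose and 12 in all. The labels give no genetic change and no vehicle, and they do not say whether the 4 libraries of each dose stand for 4 cultures. The spread between libraries may therefore be technical.

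KLFs carry a row of C2H2 zinc fingers at the end of the protein, joined by short conserved linkers, and bind GC-rich DNA such as GC boxes and CACCC boxes. The rest of the protein differs between members, and some members mainly activate genes while others recruit corepressors such as Sin3a. Klf10 and Klf11 were first described as early genes induced by the growth factor TGF-beta. In muscle, Klf15 answers to glucocorticoids and acts on the use of lipids and branched-chain amino acids, and Klf2 and Klf4 have been tied to the fusion of myoblasts.

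A stretch of 84 coding bases within the finger region was compared between the members, and it covers only part of that region. Klf10 and Klf11 are shown first, since they are the members whose RNA differed most at 6 against 0 µM. Each line gives the 84 coding bases that start with the last in-frame match to the conserved linker between fingers, with the 15 bases of the linker in capitals. The bases come from the GENCODE M21 transcript with the longest coding sequence.
Klf10: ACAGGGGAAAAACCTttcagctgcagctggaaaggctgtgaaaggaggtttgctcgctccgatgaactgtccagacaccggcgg
Klf11: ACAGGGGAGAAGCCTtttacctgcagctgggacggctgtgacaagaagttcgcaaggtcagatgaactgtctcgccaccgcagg
Klf9: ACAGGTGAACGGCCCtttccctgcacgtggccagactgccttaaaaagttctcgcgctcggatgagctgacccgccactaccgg
Klf4: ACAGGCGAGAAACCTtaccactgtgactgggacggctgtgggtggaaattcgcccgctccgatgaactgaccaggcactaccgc
Klf6: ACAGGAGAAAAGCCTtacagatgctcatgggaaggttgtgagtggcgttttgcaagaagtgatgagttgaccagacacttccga
The Klf10 and Klf11 stretches had the same base at 65 of 84 positions, an identity of 77.4%. Over the 45 pairs of the 10 members, identity ran from 54.8% to 77.4% with a median of 69.0%. Klf10 with Klf11 tied with Klf2 with Klf4 and Klf2 with Klf5 at the top, and Klf6 with Klf9 was lowest. The whole coding sequences were 1437 bases for Klf10 and 1506 bases for Klf11.

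Promoters are shown for 3 members that were higher with PFOS and have an entry in RefSeq's promoter table (GRCm38.p6). Of the 10 members, 8 have an entry, and Klf5 and Klf10 do not. Each line gives the 250 bases before RefSeq's transcription start, on the gene's own strand, at chr12:24651121-24651370 for Klf11 (plus strand), chr4:55532476-55532725 for Klf4 (minus strand) and chr13:5861239-5861488 for Klf6 (plus strand). Capitals mark matches on either strand to a GC box, searched as GGGCGG, or to the shorter cAMP response element, searched as TGACG.
Klf11: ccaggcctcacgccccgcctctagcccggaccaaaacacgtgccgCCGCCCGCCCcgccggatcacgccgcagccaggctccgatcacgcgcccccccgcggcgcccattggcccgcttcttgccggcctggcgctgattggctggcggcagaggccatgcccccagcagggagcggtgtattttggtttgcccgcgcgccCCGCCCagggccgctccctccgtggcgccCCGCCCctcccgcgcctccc
Klf4: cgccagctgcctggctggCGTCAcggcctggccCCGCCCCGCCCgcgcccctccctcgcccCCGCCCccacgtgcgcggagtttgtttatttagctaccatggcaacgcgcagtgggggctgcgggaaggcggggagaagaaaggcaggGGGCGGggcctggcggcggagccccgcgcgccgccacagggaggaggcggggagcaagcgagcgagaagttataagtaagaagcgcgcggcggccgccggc
Klf6: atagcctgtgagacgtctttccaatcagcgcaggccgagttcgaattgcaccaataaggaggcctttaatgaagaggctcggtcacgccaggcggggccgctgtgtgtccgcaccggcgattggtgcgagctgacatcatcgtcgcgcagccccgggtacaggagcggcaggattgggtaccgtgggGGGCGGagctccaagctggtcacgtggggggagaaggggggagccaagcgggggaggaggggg
Klf11 and Klf4 each had 4 GC boxes, some of them overlapping, and Klf6 had 1. Over 300 bases, 250 before the start and 50 after it, 7 of the 8 members had a GC box, against 35.7% of the 32851 promoters in the table, and Klf9 had none. These windows are rich in G and C, with 63.0% to 77.7% in the members and a median of 52.7% over all promoters. The CACCC box, searched as CACCC, was in 5 of the 8, against 57.5% of all promoters, and TGACG was in 6 of the 8, against 20.8%. The SMAD element, searched as CAGAC, was in Klf3 and Klf15, against 49.6% of all promoters. None of the 8 windows held the full cAMP response element TGACGTCA, the AP-1 site TGACTCA or a CArG box, which were in 1.79%, 5.2% and 1.63% of all promoters. A match of letters is not a bound site, and a missing match says only that these letters are not in the window.

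Library totals ran from 30206155 to 50351082 counts. Libraries had counts in 20470 to 21040 genes at 0 µM, 20377 to 21171 at 2 µM and 19292 to 20110 at 6 µM. Every library of 6 µM thus had fewer such genes than any library of the other doses, and the cause was not tested. Levels below are in CPM, the counts scaled to the TMM-adjusted size of each library, with the SD over the 4 libraries after each mean. Fold changes, their standard errors (SE) and 95% intervals come from edgeR's quasi-likelihood fit over all 12 libraries. A gene is said to be called where its Benjamini-Hochberg adjusted p in that fit, over all 16038 genes, was under 0.05. By this rule 4.58% of all genes were called higher and 3.66% lower with 6 µM PFOS than without, and 1.61% higher and 0.742% lower with 2 µM than without. Between the doses, at 6 against 2 µM, 0.561% were called higher and 0.549% lower. Both comparisons with 0 µM share the same control libraries. Replicate 1 of 0 µM and replicates 2 and 3 of 6 µM stood farthest from the means of their doses. Without these 3 libraries 408 genes were called higher and 302 lower at 6 against 0 µM, against 735 and 587 with them.

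Of the 10 KLF members, 5 were called higher at 6 µM against 0 µM, where 4.58% of all genes were called higher: Klf10, Klf11, Klf5, Klf4 and Klf6. The same 5 were called higher at 2 µM against 0 µM, where 1.61% of all genes were called higher. Since the members were picked with these comparisons in view, nothing is read from those shares. Without the 3 libraries that stood farthest from their dose means, 3 members were called higher at 6 against 0 µM and 5 at 2 against 0 µM. By edgeR 0 members were called lower in the 3 comparisons. At an unadjusted p under 0.05, 6 members were higher and 1 lower at 6 against 0 µM, 6 higher and 0 lower at 2 against 0 µM, and 2 higher and 2 lower at 6 against 2 µM. DESeq2 and limma-voom each also called 5 higher at either dose against 0 µM and 0 lower. The median log2 fold change of the 10 was 0.20 at 6 µM and 0.28 at 2 µM against 0 µM, beside -0.02 and -0.01 over all tested genes. In bulk RNA, fewer cells that express a gene and less of its RNA per cell cannot be told apart.

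**Figure D1:**
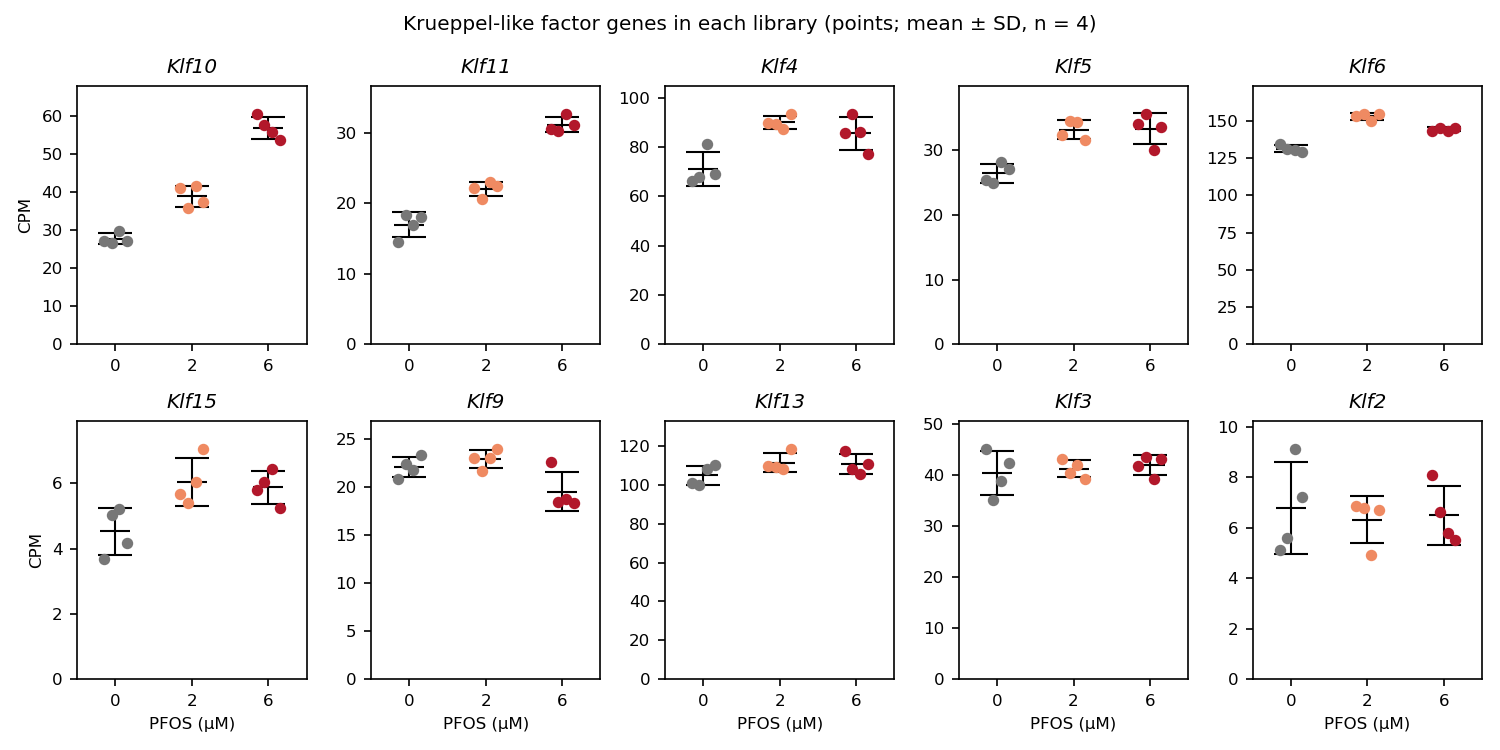
Level of each of the 10 KLF genes in CPM (vertical axes, starting at 0) at 0, 2 and 6 µM PFOS (horizontal axes). Each point is 1 library and each bar the mean of 4 with its SD. Klf10 and Klf11 step up at each dose, the means of Klf4, Klf5 and Klf6 are higher at both doses than at 0 µM, and the doses of Klf2, Klf3 and Klf13 overlap.

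Klf10 had the largest fold change of the 10 members, and its RNA was higher at each dose than at the one below. Klf10 (ENSMUSG00000037465, chromosome 15 from 38291463 to 38300706 on the minus strand, GRCm38) encodes a TGF-beta-inducible factor that mainly represses its targets. It had 27.1, 26.7, 29.8 and 27.3 CPM at 0 µM, 41.0, 35.7, 41.6 and 37.5 CPM at 2 µM, and 60.7, 57.7, 55.7 and 53.7 CPM at 6 µM. All 4 libraries of each dose lay above all 4 of the dose below, so none of the 3 doses overlapped. The means were 27.7 ± 1.42, 38.9 ± 2.81 and 56.9 ± 2.96 CPM at 0, 2 and 6 µM.

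The log2 fold change of Klf10 at 6 against 0 µM was 1.04 ± 0.0658 (SE), a 2.05-fold difference with an interval from 1.85 to 2.28. At 2 against 0 µM it was 0.49 ± 0.0660, or 1.40-fold (1.27 to 1.56). The direct comparison of the doses gave 0.55 ± 0.0644 at 6 against 2 µM, or 1.46-fold (1.32 to 1.62). So the log2 step from none to the lower dose and the step between the doses had intervals that overlap, 0.34 to 0.64 and 0.40 to 0.69. Of all tested genes, 142 had a higher log2 fold change than Klf10 at 6 against 0 µM and 555 at 2 against 0 µM. Klf10 kept its call in all 3 comparisons under each of 22 other settings, with log2 fold changes of 1.01 to 1.08, 0.46 to 0.53 and 0.51 to 0.59.

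Klf11, the paralog nearest to Klf10 and likewise a TGF-beta-inducible repressor, had the next largest fold change of the members at 6 against 0 µM and at 6 against 2 µM. Klf11 (ENSMUSG00000020653, chromosome 12 from 24651274 to 24662789 on the plus strand) had 14.5, 18.3, 17.0 and 18.1 CPM at 0 µM. It had 22.1, 20.6, 23.0 and 22.4 CPM at 2 µM, and 30.5, 30.2, 32.7 and 31.1 CPM at 6 µM. Here too no library of a dose fell into the range of another dose. The log2 fold change was 0.88 ± 0.0789 (1.84-fold) at 6 against 0 µM, 0.38 ± 0.0792 (1.30-fold) at 2 against 0 µM and 0.50 ± 0.0774 (1.41-fold) at 6 against 2 µM. Klf10 and Klf11 were the only 2 of the 10 members called at 6 against 2 µM, where 0.561% of all genes were called higher. The call of Klf11 at 2 against 0 µM ended when replicate 4 of 2 µM was left out, at a log2 fold change of 0.37, and its calls in the other comparisons held in all 22 settings.

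**Figure D2:**
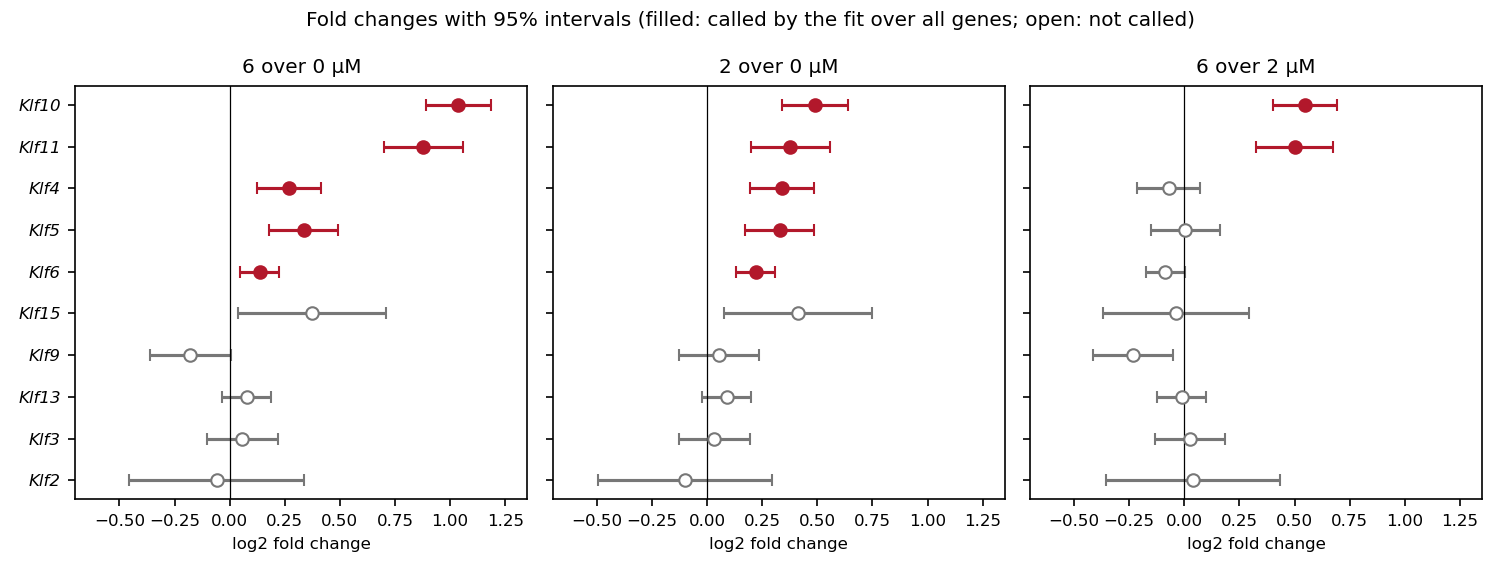
Log2 fold change of each KLF gene (horizontal axis) with its 95% interval at 6 against 0 µM, 2 against 0 µM and 6 against 2 µM, from edgeR's quasi-likelihood fit, filled where the gene was called. Klf10 and Klf11 lie above 0 in all 3 comparisons, while the called values of Klf4, Klf5 and Klf6 are those against 0 µM.

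Klf4, Klf5 and Klf6 were higher at both doses than at 0 µM by smaller amounts, and for these the doses differed little from each other. Klf4 (ENSMUSG00000003032, chromosome 4 from 55527143 to 55532466 on the minus strand) encodes a factor known for its part in pluripotency and in epithelial and vascular cells. It had 66.1, 67.9, 81.2 and 68.9 CPM at 0 µM, 89.6, 89.3, 87.4 and 93.5 CPM at 2 µM, and 85.8, 93.3, 86.2 and 77.1 CPM at 6 µM. The libraries of 2 µM all lay above those of 0 µM, whereas 1 library of 6 µM (replicate 4) lay below the highest library of 0 µM (replicate 3). Klf4 differed by a log2 fold change of 0.27 ± 0.0639 (1.21-fold) at 6 against 0 µM and 0.34 ± 0.0638 (1.27-fold) at 2 against 0 µM. At 6 against 2 µM it was -0.07, with an interval from -0.21 to 0.07. Without the 3 libraries that deviated most from their dose means (replicate 1 of 0 µM and replicates 2 and 3 of 6 µM), the log2 fold change at 6 against 0 µM was 0.17 and not called.

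Klf5 (ENSMUSG00000005148, chromosome 14 from 99298691 to 99315036 on the plus strand) encodes a mainly activating factor of proliferating cells that also takes part in adipocyte differentiation. It had 25.4, 25.0, 28.1 and 27.1 CPM at 0 µM, 32.3, 34.6, 34.3 and 31.6 CPM at 2 µM, and 34.0, 35.6, 30.0 and 33.6 CPM at 6 µM. Every library with PFOS lay above every library without it, and the 2 doses covered each other. The log2 fold change was 0.33 ± 0.0696 at 6 against 0 µM and 0.33 ± 0.0696 at 2 against 0 µM, each 1.26-fold, and 0.01 (-0.15 to 0.16) at 6 against 2 µM. Its call at 2 against 0 µM ended without replicate 2 of 0 µM, at a log2 fold change of 0.30.

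Klf6 (ENSMUSG00000000078, chromosome 13 from 5861482 to 5870394 on the plus strand) encodes a widely expressed factor known as a growth suppressor, and it was the most abundant of the 10 per length. It had 135, 131, 131 and 129 CPM at 0 µM, 153, 155, 150 and 155 CPM at 2 µM, and 143, 146, 143 and 145 CPM at 6 µM. The libraries within a dose were close together and the 3 doses did not overlap, with 2 µM highest. Klf6 differed by a log2 fold change of 0.14 ± 0.0387 (1.10-fold) at 6 against 0 µM and 0.22 ± 0.0387 (1.17-fold) at 2 against 0 µM. At 6 against 2 µM it was -0.09 (-0.17 to 0.00) and not called. The call at 6 against 0 µM was lost in 12 of 22 other settings, among them those that left out 1 of the replicates 2, 3 and 4 of 0 µM or any 1 of 6 µM, with log2 fold changes of 0.13 to 0.14 there.

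Klf15 and Klf9, both known as glucocorticoid-responsive genes, were not called in any of the 3 comparisons. Klf15, the activator tied to branched-chain amino acid use in muscle, was the scarcest of the 10 per length. It had 3.67, 5.02, 5.22 and 4.17 CPM at 0 µM, 5.66, 5.39, 6.04 and 7.06 CPM at 2 µM, and 5.79, 6.05, 6.43 and 5.23 CPM at 6 µM. Both doses lay above 0 µM in every library, though the lowest library of 6 µM and the highest of 0 µM were nearly equal. For Klf15 the log2 fold change was 0.37 ± 0.149 at 6 against 0 µM (interval 0.04 to 0.71) and 0.41 ± 0.149 at 2 against 0 µM (0.08 to 0.75). The gene had 120 to 319 counts in a library, and its SE was second only to that of Klf2 among the members.

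Klf9, a repressor induced by glucocorticoids and thyroid hormone, had the most negative log2 fold change of the 10 at 6 against 0 µM. It had 20.9, 22.4, 21.8 and 23.4 CPM at 0 µM, 23.0, 21.7, 23.1 and 24.0 CPM at 2 µM, and 22.6, 18.5, 18.7 and 18.3 CPM at 6 µM. At 6 µM, 3 libraries lay below every library of the other doses, and replicate 1 lay within the range of those doses. The log2 fold change was -0.18 (-0.36 to 0.00) at 6 against 0 µM and -0.23 (-0.41 to -0.05) at 6 against 2 µM, and neither was called.

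Klf13, a repressor related to Klf9 and known in lymphocytes and the heart, averaged 105, 112 and 111 CPM at 0, 2 and 6 µM. Klf3, which represses through CtBP and restrains adipocyte differentiation, averaged 40.3, 41.2 and 41.9 CPM. Klf2, a factor of quiescent T cells and of endothelium, averaged 6.78, 6.32 and 6.50 CPM. For these 3 genes the doses overlapped, and the log2 fold changes at 6 against 0 µM were 0.08 (-0.03 to 0.19) for Klf13, 0.06 (-0.10 to 0.22) for Klf3 and -0.06 (-0.46 to 0.34) for Klf2. The interval of Klf2 was wide, with 5.11 to 9.15 CPM among the libraries of 0 µM alone.

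Counted by libraries that do not overlap, 5 members were higher at 6 against 0 µM, where 6.39% of all genes were, and 0 were lower, where 6.15% of all genes were. The 5 were Klf10, Klf11, Klf5, Klf6 and Klf15. At 2 against 0 µM there were 6, those 5 and Klf4, where 4.77% of all genes were, and again 0 were lower, where 3.6% were. At 6 against 2 µM, Klf10 and Klf11 were higher, beside 4.45% of all genes, and Klf6 was lower, beside 4.15%. None of these members was overlapped by another gene in the table. Klf3, Klf9 and Klf13 were, by genes with at most 16 counts in a library.

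Per length of the gene model (FPKM, the CPM divided by the length in kilobases), the order of the levels at 0 µM was led by Klf6 (29.9 ± 0.536), Klf4 (23.3 ± 2.26) and Klf13 (13.9 ± 0.665). Klf9 (6.78 ± 0.318) and Klf10 (6.64 ± 0.340) followed, and their libraries overlapped. Then came Klf5 (5.08 ± 0.282), Klf11 (3.90 ± 0.404), Klf2 (3.67 ± 0.986), Klf3 (3.59 ± 0.389) and Klf15 (1.62 ± 0.261), of which Klf11, Klf2 and Klf3 overlapped from one to the next. Klf10 thus stood at place 5 without PFOS.

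At 6 µM the first 3 places were the same, with Klf6 at 32.9 ± 0.310, Klf4 at 28.1 ± 2.18 and Klf13 at 14.7 ± 0.678 FPKM. Klf10 had moved to place 4 with 13.6 ± 0.709 FPKM, and its libraries overlapped those of Klf13. Klf11 followed with 7.18 ± 0.255 FPKM, above Klf5 (6.40 ± 0.460) and Klf9 (5.99 ± 0.632), which overlapped. At 2 µM, Klf10 (9.32 ± 0.673 FPKM) was already above Klf9 (7.03 ± 0.293) in every library, while Klf11 (5.08 ± 0.238) still lay below Klf5 (6.38 ± 0.284). Klf3 and Klf2 overlapped at every dose, and Klf15 was last at each.

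The sum of the 10 FPKM values was 98.4 ± 4.20 at 0 µM, 116 ± 1.98 at 2 µM and 118 ± 3.76 at 6 µM. Klf10 made up 6.74 ± 0.118% of that sum at 0 µM, 8.02 ± 0.622% at 2 µM and 11.5 ± 0.287% at 6 µM. Klf11 made up 3.97%, 4.37% and 6.08%, and Klf9 made up 6.89%, 6.05% and 5.06%. Klf6 and Klf4 together held most of the sum at each dose, with 30.5% and 23.6% at 0 µM and 27.8% and 23.7% at 6 µM.

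**Figure D3:**
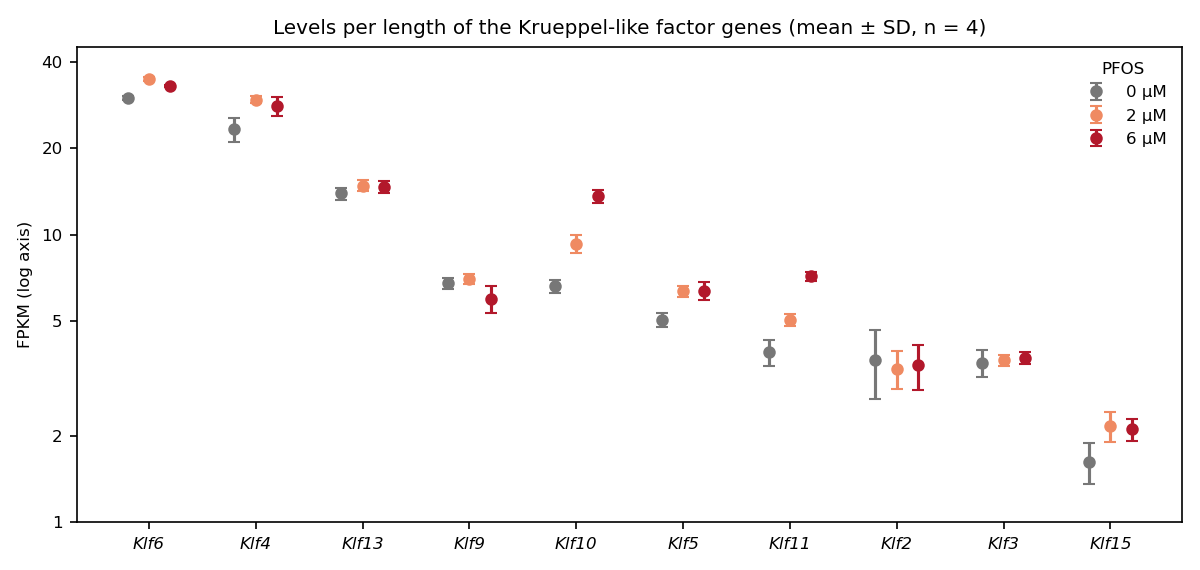
Level of each KLF gene per length of its gene model in FPKM (log axis), mean and SD of 4 libraries at 0, 2 and 6 µM PFOS. Klf6 and Klf4 are highest at every dose, and Klf10 passes Klf9 at 2 µM and reaches the range of Klf13 at 6 µM.

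Within a dose the members did not vary together as a block. After the dose means were taken off the log2 CPM, Pearson's r over the 12 libraries had a median of 0.15 over the 45 pairs of members and ran from -0.77 (Klf3 with Klf15) to 0.71 (Klf2 with Klf4). It was 0.15 for Klf10 with Klf11, against 0.96 before the dose means were taken off. Other high values were 0.70 for Klf9 with Klf13 and 0.69 for Klf2 with Klf13, and Klf6 with Klf11 was at -0.77. All pairs share the same libraries and their scaling, and with 12 points these values are descriptions only.

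Over the 12 libraries, the genes whose log2 CPM was most like that of Klf10, among 10740 ranked, were Mybbp1a (r = 0.98), Angptl4 (0.97), Cpt1a (0.97), Carhsp1 (0.97) and Lpcat3 (0.97). Angptl4, a secreted inhibitor of lipoprotein lipase, averaged 9.42 ± 1.02, 61.7 ± 2.94 and 202 ± 9.94 CPM at 0, 2 and 6 µM, and Cpt1a, the enzyme that takes fatty acids into mitochondria, averaged 86.0 ± 4.60, 124 ± 3.60 and 169 ± 9.02 CPM. Mybbp1a, a nucleolar protein, averaged 306 ± 7.39, 345 ± 5.99 and 386 ± 8.27 CPM. The most opposed genes were Plb1 (r = -0.97), the imprinted RNA H19 (-0.96), Igfbp3 (-0.96), Tent5a (-0.96) and C1qtnf3 (-0.96). H19 averaged 913, 798 and 614 CPM, and Igfbp3, a binding protein of insulin-like growth factors, 63.9 ± 3.25, 46.2 ± 0.937 and 34.8 ± 1.94 CPM. Klf11 held place 10 of the 10740 with r = 0.96. Next among the members was Klf5 at place 414 with 0.78, then Klf4 with 0.65, Klf15 with 0.64 and Klf6 with 0.54, and Klf9 was lowest with -0.52. The dose itself is part of every such r.

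The rest of the family was measured by the same fit. The table holds 16 further KLF and SP genes, and 10 of them passed the filter on low counts (Klf1, Klf7, Klf8, Klf12, Klf16, Sp1, Sp2, Sp3, Sp4 and Sp8). By edgeR 0 of the 10 were called in each of the 3 comparisons, with adjusted p from 0.160 to 0.900 at 6 against 0 µM, 0.0540 to 0.963 at 2 against 0 µM and 0.217 to 0.956 at 6 against 2 µM. At an unadjusted p under 0.05, 1 was higher at 6 against 0 µM, 2 were higher and 1 lower at 2 against 0 µM, and 2 were lower at 6 against 2 µM. DESeq2 and limma-voom each called 1 of them higher at 2 against 0 µM and 0 in the other comparisons.

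That gene was Klf7, a factor known in neurons and in adipocyte precursors, which averaged 54.3 ± 3.44 CPM at 2 µM against 45.3 ± 4.99 CPM at 0 µM. Its log2 fold change was 0.26 ± 0.0718 with an edgeR adjusted p of 0.0540, and over 22 other settings that p ran from 0.00407 to 0.225 and was under 0.05 in 7. Without replicate 4 of 0 µM, the log2 fold change of Klf7 was 0.33 and called. At 6 µM, Klf7 had 47.3 ± 2.45 CPM, a log2 fold change of 0.07 (-0.10 to 0.23) against 0 µM. Sp1, the founding GC-box factor of the wider family, had log2 fold changes of 0.13 (0.01 to 0.25) at 6 µM and 0.14 (0.02 to 0.26) at 2 µM against 0 µM, neither called. Without replicate 1 of 0 µM it was called in both, at 0.17 and 0.19. Klf1, the erythroid factor, had only 3 to 29 counts in a library, and its log2 fold change of -1.69 at 2 against 0 µM had an interval from -3.17 to -0.21. Counted over all 15 tested Klf genes, 5 were called higher and 0 lower against 0 µM at each dose. Beside this, 4.58% of all tested genes were called higher at 6 against 0 µM and 1.61% at 2 against 0 µM. The 5 are all members chosen with these calls known, so nothing is read from that count. The median log2 fold change of the 15 was 0.08 at 6 µM and 0.20 at 2 µM. Over all tested genes it was -0.02 and -0.01.

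Gene lists tied to the members' known regulation were set beside them, counted as called in the same fit. Among all tested genes, 4.58% were called higher and 3.66% lower at 6 against 0 µM. At 2 against 0 µM the shares were 1.61% and 0.742%. Of 20 tested genes of the TGF-beta and SMAD list, the pathway that induces Klf10 and Klf11, 2 rose and 2 fell at 6 against 0 µM, with a median log2 fold change of 0.06. Among those that rose was Ltbp1, which holds latent TGF-beta in the matrix (log2 fold change 0.21, edgeR adjusted p = 0.000908). The ligand genes Tgfb3 (73.5 ± 3.88 CPM at 6 µM against 103 ± 4.97 CPM at 0 µM, log2 fold change -0.48, edgeR adjusted p = 1.62e-06) and Tgfb2 (log2 fold change -0.31, edgeR adjusted p = 0.000853) fell. At 2 against 0 µM, 4 of the 20 rose and 0 fell by edgeR, with 8 higher and 1 lower at an unadjusted p under 0.05, 6 and 1 by DESeq2 and 5 and 1 by limma-voom. Without replicate 4 of 2 µM only 1 of those 4 was called. Tgfb3 was also lower at 6 against 2 µM, at -0.30 (edgeR adjusted p = 0.00225).

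**Figure D4:**
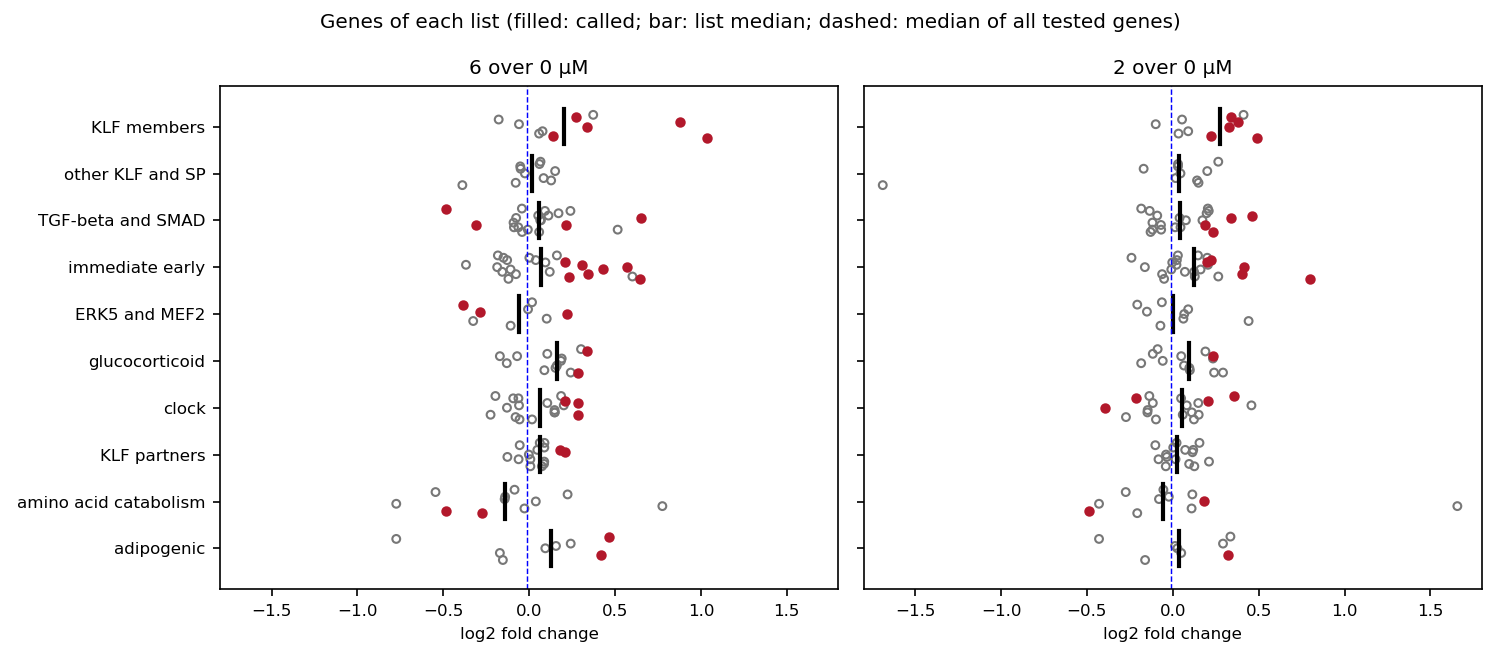
Log2 fold change (horizontal axes) of each tested gene of 10 lists (rows) at 6 against 0 µM and 2 against 0 µM. Each circle is 1 gene, filled where edgeR called it, the thick bar is the list's median, and the dashed line is the median of all 16038 tested genes. The KLF members have medians of 0.20 and 0.28, which their choice bears on, and the immediate early list has 7 of 22 filled circles on the left, all above 0. In that comparison 4.58% of all tested genes were called higher.

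Immediate early genes are a class that some KLF genes share in responding quickly to stimuli. Of 22 tested, 7 rose at 6 against 0 µM and 5 rose at 2 against 0 µM. Called higher in these comparisons were 4.58% and 1.61% of all tested genes, and 3.66% and 0.742% were called lower. By edgeR 0 fell in either comparison, also at an unadjusted p under 0.05 and by DESeq2 and limma-voom. The count at 2 against 0 µM was 3 when replicate 1 or 2 of 0 µM, any 1 replicate of 2 µM or replicate 3 of 6 µM was left out. Without the 3 libraries that deviated most, 5 genes rose at 6 µM and 3 at 2 µM. The medians with all libraries were 0.07 and 0.13. Fosl1, a subunit of AP-1, had 36.6 ± 4.90, 48.8 ± 1.25 and 54.5 ± 3.12 CPM at 0, 2 and 6 µM, with log2 fold changes of 0.41 at 2 µM (edgeR adjusted p = 0.00497) and 0.57 at 6 µM (3.13e-05). The stress factor Atf3 had 25.1 ± 2.66, 43.7 ± 5.20 and 39.2 ± 6.33 CPM at 0, 2 and 6 µM, with log2 fold changes of 0.80 at 2 µM (edgeR adjusted p = 0.000163) and 0.64 at 6 µM (0.000351). Myc rose by 0.34 at 6 µM (edgeR adjusted p = 0.000373) and by 0.40 at 2 µM (0.000278), and the survival gene Ier3 rose by 0.43 at 6 µM (0.000251). The calls of these 4 genes held in all 22 other settings.

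In the glucocorticoid list, 2 of 13 tested genes rose and 0 fell by edgeR at 6 against 0 µM. The shares of all tested genes called there were 4.58% higher and 3.66% lower. At an unadjusted p under 0.05, 7 of the 13 were higher and 2 lower. DESeq2 called 4 higher and 0 lower, and limma-voom 2 and 0. Mt1, a metallothionein, rose by 0.34 (edgeR adjusted p = 0.00240). Sgk1, a kinase, rose by 0.28 (edgeR adjusted p = 0.00918), but without the 3 libraries that deviated most it was 0.23 and not called. The median at 6 against 0 µM was 0.16. In this list 1 gene rose and 0 fell at 2 against 0 µM, and 0 rose and 1 fell at 6 against 2 µM. Both calls were of Tsc22d3, at 0.23 (edgeR adjusted p = 0.0363) and -0.30 (0.00907). They were lost in 10 and 3 of 22 other settings, and at 6 against 0 µM Tsc22d3 was at -0.07 and not called. In the ERK5 and MEF2 list, upstream of Klf2 and Klf4, 1 of 8 genes rose and 2 fell at 6 against 0 µM. Mef2c fell by 0.38 (edgeR adjusted p = 0.000393) and Mef2a fell by 0.29 (0.00146), the last not called without those 3 libraries (-0.23). The gene that rose was Mef2d, whose call was lost in 12 of 22 other settings, 9 of them with 1 library left out.

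The remaining lists had 0 to 3 called genes in a direction at 6 against 0 µM. Over all tested genes, 4.58% were called higher and 3.66% lower in that comparison. Of 18 clock genes, 3 rose, led by Bhlhe40 (0.28, edgeR adjusted p = 0.00152), and 1 rose when replicate 2 or 4 of 0 µM or replicate 1 or 3 of 6 µM was left out. Of 8 adipogenic genes acted on by KLFs, 2 rose, Pparg (0.42, edgeR adjusted p = 0.00336) and Fabp4 (0.46, 0.0385). The call of Fabp4 was lost in 9 of 22 other settings, among them limma-voom, the replicate block and those that left out replicate 2, 3 or 4 of 0 µM or replicate 1, 2 or 3 of 6 µM (0.39 to 0.50 without 1 of these libraries). Without the 3 most deviating libraries it was also lost, at 0.29. Of 15 genes for corepressors and coactivators that KLFs recruit, 2 rose, Sin3a by 0.18 and Ep300 by 0.21. The call of Sin3a ended without replicate 2 of 0 µM (0.16) or replicate 4 of 6 µM (0.17). That of Ep300 ended without replicate 2 or 3 of 0 µM or replicate 1 or 4 of 6 µM, at 0.18 to 0.20. Of 11 genes of branched-chain amino acid use tied to Klf15, 2 fell. Bcat2, the mitochondrial aminotransferase, fell by 0.28 (edgeR adjusted p = 0.0146), but without replicate 2 of 0 µM it was -0.21 and not called. Ppm1k, the phosphatase of the pathway's dehydrogenase, fell by 0.48 (edgeR adjusted p = 0.0225), and was not called in 6 of 22 other settings, such as without replicate 1 (-0.41) or 3 (-0.48) of 0 µM or replicate 1 (-0.47) or 4 (-0.42) of 6 µM.

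Some markers of muscle cells were lower at 6 µM. Of 6 tested myoblast markers, 4 fell at 6 against 0 µM, where 3.66% of all tested genes were called lower. They were Myog (-0.82, edgeR adjusted p = 0.00172), Myod1 (-0.38, 0.00333), Chrna1 (-0.31, 0.00473) and Cdh15 (-0.26, 0.0369). The call of Cdh15 was lost in 9 of 22 other settings, 7 of them with 1 library left out. Des (230 CPM at 6 µM against 259 CPM at 0 µM) and Myf5 (1.79 against 2.39 CPM) were not called by edgeR. At 2 against 0 µM edgeR called 0 of the 6, with 3 lower at an unadjusted p under 0.05, 1 lower by DESeq2 and 0 by limma-voom, and the median log2 fold change was -0.14 at 2 µM and -0.35 at 6 µM. The summed level of the 7 myoblast markers was 348 to 421 CPM at 0 µM, 339 to 370 CPM at 2 µM and 318 to 351 CPM at 6 µM, most of it from Des, and the stem cell marker Pax7 was near 0. Adipocyte markers summed to at most 0.221 CPM, with Adipoq and Retn at 0 in every library, and immune markers to at most 1.58 CPM, with Cd3e at 0. Endothelial markers summed to 4.76 to 7.49 CPM, nearly all of it Cdh5, and keratinocyte and epithelial markers to 17.9 to 23.0 CPM, nearly all of it Krt14 and with Krt18 at 0. Whether the fall of the muscle markers has a part in the KLF values was not tested.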

How the data were processed

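Gene counts of 12 libraries (C2C12 cells, 4 at each of 0, 2 and 6 µM PFOS for 24 h) were used, each library assigned to its dose from its title. The values are raw gene counts, which the authors deposited as 1 table of 54532 genes with no scaling. The submitters' processing notes name HISAT2 as the aligner and GRCm39 as the build. How reads were counted, with which annotation and with regard to strand or not, is not given in the sources used here. Gene positions in the deposited table equal those of GENCODE M21 on GRCm38 for 9 of the 10 KLF members, Klf9 being the exception, so the table's own positions are printed and called GRCm38. Even counts prevail among low counts (62.9% of the 48956 counts from 1 to 6, against 49.9% of those from 101 to 1000), as they would if both mates of a pair were counted. Intervals treat each count as 1 read.

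The deposited counts went without change into edgeR 4.0.16 under R 4.3.3 (TMM scaling, filterByExpr by dose, quasi-likelihood test, 1 mean per dose, 9 residual degrees of freedom, Benjamini-Hochberg adjustment over 16038 genes). The common biological coefficient of variation was 10.8%. The SE is the ratio of the log2 fold change to the root of F, and intervals use Student's distribution with 9 degrees of freedom. FPKM was computed from CPM and the gene length in the table. P-values measure only the spread between these libraries. The other settings were DESeq2 1.42.0, limma-voom 3.58.1, DESeq2 size factors or upper-quartile scaling in edgeR, no count filter, a mean count of at least 50, only the 2 doses compared, a block for the replicate number, and each library left out in turn. Added after seeing the data were a fit without the 3 most deviating libraries and a fit with the counts halved. The steps were tested on simulated counts. The members and gene lists were chosen with earlier results of these data known. All members are named, then every other KLF and SP gene past the filter, up to 4 called genes per list, ordered by adjusted p at 6 against 0 µM, and the 5 genes most like and the 5 least like Klf10 by Pearson's r of log2 CPM (prior count 2), among genes with a mean log2 CPM of at least 1. Some called list genes, those with unstable calls among them, are counted and not reported by name here.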

Additional observations from a re-analysis of the deposited data

Results flagged for a closer look

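Among the 60 groups of 4 libraries examined (20 KLF and SP genes at 3 doses), 3 held a library far from the other 3, about as many as the 1 in 20 that chance gives. Klf2 had 4.91 CPM in replicate 3 of 2 µM, against 6.71 to 6.88 CPM in the other libraries of that dose. Klf9 had 22.6 CPM in replicate 1 of 6 µM, against 18.3 to 18.7 CPM in the others. Klf13 had 119 CPM in replicate 4 of 2 µM, against 108 to 110 CPM in the others. None of these 3 genes was called in any comparison.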

How the results depend on the processing

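Over all tested genes, 735 were called higher and 587 lower at 6 against 0 µM, 258 and 119 at 2 against 0 µM, and 90 and 88 at 6 against 2 µM. With 1 library left out these counts ran from 513 to 789 and from 398 to 592, from 72 to 322 and from 34 to 168, and from 45 to 138 and from 33 to 121. The lowest counts at 2 against 0 µM came without replicate 4 of 2 µM. Upper-quartile scaling gave 598 and 662 at 6 against 0 µM, so that more genes were called lower than higher, and 184 and 134 at 2 against 0 µM. Without a count filter the counts were 438 and 193 at 2 against 0 µM and 177 and 224 at 6 against 2 µM, and by DESeq2 518 and 224, and 229 and 216. With only the 2 doses compared, 174 and 133 were called at 6 against 2 µM. Without the 3 most deviating libraries, 408 and 302 were called at 6 against 0 µM and 55 were lower at 6 against 2 µM.

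Of the KLF members, 4 to 5 were called higher against 0 µM at either dose, 2 at 6 against 2 µM and 0 lower in each comparison with 1 library left out. Without the 3 most deviating libraries 3 were called higher at 6 against 0 µM. Of the other KLF and SP genes, 0 to 1 were called higher against 0 µM at either dose, 0 at 6 against 2 µM and 0 lower in each comparison with 1 library left out. Klf7 was the 1 called at 2 against 0 µM without a count filter, with a mean count of at least 50, by DESeq2, by limma-voom, with the replicate block and with the counts halved. The replicate block also left 54 genes lower at 6 against 2 µM. Libraries with the same replicate number had correlations of deviations from -0.028 to 0.037, so the number gave no sign of pairing. The call of Klf6 at 6 against 0 µM was also lost with upper-quartile scaling (0.12), without a count filter (0.14), with only the 2 doses compared (0.14) and with the replicate block (0.14). The cause was not tested. Ranked by CPM without length, Klf10 stood at place 5, 5 and 4 of the members at 0, 2 and 6 µM.

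For the 20 KLF and SP genes, 1313 fold changes were recomputed. Of these 43 changed sign, none of them called with all libraries and the largest 0.15 in size. At 6 against 0 µM, leaving out 1 library gave log2 fold changes from -0.69 to 0.052 for Klf1, -0.15 to 0.047 for Klf12, -0.18 to 0.12 for Klf2, -0.0047 to 0.12 for Klf3, -0.11 to 0.048 for Sp3, -0.15 to 0.040 for Sp4 and -0.093 to 0.027 for Sp8. Limma-voom gave 0.0065 for Klf12, and without the 3 libraries Klf12 was at 0.15 and Sp4 at 0.050. At 2 against 0 µM, leaving out 1 library gave -0.061 to 0.077 for Klf16, -0.21 to 0.083 for Klf2, -0.029 to 0.092 for Klf3, -0.017 to 0.083 for Sp2, -0.019 to 0.10 for Sp3 and -0.0069 to 0.11 for Sp8. Without the 3 libraries, Klf16 was at -0.059, Sp2 at -0.015 and Sp8 at -6.51e-05. At 6 against 2 µM, leaving out 1 library gave -0.042 to 0.019 for Klf13, -0.091 to 0.045 for Klf15, -0.082 to 0.11 for Klf2, -0.029 to 0.055 for Klf5, -0.044 to 0.0044 for Sp1, -0.021 to 0.057 for Sp2 and -0.16 to 0.0018 for Sp3. Without the 3 libraries, Klf13 was at 0.038, Klf8 at 0.0077 and Sp1 at 0.023. Klf1 had only 3 to 29 counts in a library, which limits its precision.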
